A study of Rattus norvegicus with 12 samples.

Results

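Glucocorticoid-responsive genes were followed in the cerebral cortex of neonatal rats after hypoxia-ischemia. The set holds 8 genes, Ddit4, Map3k6, Nfkbia, Fkbp5, Tsc22d3, Sgk1, Per1 and Nr3c1, which were given by name, without a threshold on a measured value, by a choice made with earlier results of these data known. The array held 12206 named genes in all, and 13 of its probes carried accessions of these 8. Nfkbia, Sgk1, Per1, Map3k6 and Ddit4 had 1 probe each, Tsc22d3 had 2, and Fkbp5 and Nr3c1 had 3 each.

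The study used 12 Wistar rat pups, 3 in each of 4 groups, with 1 Agilent 1-colour array of cortical RNA per pup. Injured pups went through the Rice procedure at 7 days of age, in which the left carotid artery was cut between ligatures under ether and 1 h of hypoxia at 8% oxygen followed. They then received an intraperitoneal injection of 100 µl saline, or of 9 mg/kg MCI-186 in saline, with a second injection 30 min later. MCI-186, also known as edaravone, is an antioxidant that scavenges free radicals. Control pups had no insult and received saline or MCI-186 by the same route, and neither a sham operation nor a second injection is given for them in the labels. Cortex on the side of the insult, or the same side in controls, was taken from rats labelled as 2 weeks old. The injured groups are a model of unilateral injury, and hormone levels are not among the data used here.

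Glucocorticoids are the adrenal steroid hormones released in stress. They bind the glucocorticoid receptor, a nuclear receptor encoded by Nr3c1, which is held in the cytoplasm by chaperones such as Hsp90 and moves to the nucleus when hormone binds. There it activates genes through the glucocorticoid response element, a palindrome of hexamer half-sites, and restrains others, among them targets of the inflammatory factor NF-κB. Several of its targets act on the receptor or on inflammatory signalling: Fkbp5 encodes a co-chaperone that lowers the receptor's affinity for hormone, Nfkbia encodes IκBα, which holds NF-κB in the cytoplasm, and Tsc22d3 encodes GILZ, an anti-inflammatory leucine zipper protein. Sgk1 encodes a kinase that regulates ion channels and transporters, Per1 a repressor of the circadian clock, Ddit4 the mTOR inhibitor REDD1, and Map3k6 a stress kinase of the ASK family. Most of these genes answer other stimuli as well: Nfkbia is a target of NF-κB itself, Ddit4 of hypoxia, and Per1 of neuronal activity and the clock.

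The sequences before the transcription start sites are shown for Nfkbia and Sgk1, which rose after injury in both arms, for Map3k6, which rose in MCI-186 pups, and for Tsc22d3, whose probes gave different results, so that matches to the motifs of these factors can be read directly. RefSeq (GRCr8) gives 13 windows for the 8 genes, each running from 250 bases before to 50 bases after a start site. Each sequence is written 5′ to 3′ on the strand of the gene, with matches to the motifs in capitals. The Nfkbia window, chr6:78597023-78597322 on the minus strand, holds 2 sequences of the NF-κB type and a TATAAA on the opposite strand. The Sgk1 window shown, 1 of 3, is chr1:24804782-24805081 on the minus strand and holds a TATAAA. The Map3k6 window is chr5:150723995-150724294 on the plus strand. The 3 Tsc22d3 windows all lie on the minus strand, and the 2 with a motif match are shown, chrX:109065381-109065680 and chrX:109009985-109010284. They are numbered here as start sites 1 and 2. The window left out, chrX:109066340-109066639, lies upstream of both and holds no match.
Nfkbia: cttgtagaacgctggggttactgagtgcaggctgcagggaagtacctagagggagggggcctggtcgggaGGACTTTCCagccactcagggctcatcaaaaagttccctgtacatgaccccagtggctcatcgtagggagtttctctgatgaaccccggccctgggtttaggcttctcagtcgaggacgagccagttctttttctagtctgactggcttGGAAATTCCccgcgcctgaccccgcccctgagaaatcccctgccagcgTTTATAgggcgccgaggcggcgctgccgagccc
Sgk1: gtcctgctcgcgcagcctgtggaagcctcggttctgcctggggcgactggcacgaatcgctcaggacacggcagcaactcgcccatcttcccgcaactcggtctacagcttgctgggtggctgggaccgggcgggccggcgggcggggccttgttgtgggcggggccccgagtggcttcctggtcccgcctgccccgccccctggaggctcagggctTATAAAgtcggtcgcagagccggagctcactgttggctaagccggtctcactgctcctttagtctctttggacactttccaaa
Map3k6: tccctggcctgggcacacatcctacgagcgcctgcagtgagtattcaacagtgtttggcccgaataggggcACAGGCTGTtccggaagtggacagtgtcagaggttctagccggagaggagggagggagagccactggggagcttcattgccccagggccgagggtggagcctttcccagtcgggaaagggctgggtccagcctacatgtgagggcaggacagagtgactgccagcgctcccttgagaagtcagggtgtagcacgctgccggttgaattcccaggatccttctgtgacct
Tsc22d3, start site 1: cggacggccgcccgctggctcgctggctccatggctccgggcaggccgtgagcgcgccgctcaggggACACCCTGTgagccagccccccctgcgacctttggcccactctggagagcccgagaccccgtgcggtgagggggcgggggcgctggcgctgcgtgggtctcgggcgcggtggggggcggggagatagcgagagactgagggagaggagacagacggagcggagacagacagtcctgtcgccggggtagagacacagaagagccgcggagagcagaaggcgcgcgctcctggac
Tsc22d3, start site 2: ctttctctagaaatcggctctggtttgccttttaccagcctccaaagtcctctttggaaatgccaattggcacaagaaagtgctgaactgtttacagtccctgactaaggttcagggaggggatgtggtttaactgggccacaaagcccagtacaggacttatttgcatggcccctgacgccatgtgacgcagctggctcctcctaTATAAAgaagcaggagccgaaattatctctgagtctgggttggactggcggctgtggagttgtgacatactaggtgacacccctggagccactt

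Both strands of all 33469 RefSeq windows were searched for the same letters, so that each match can be read against its frequency. The full palindrome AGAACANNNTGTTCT was in 0 of the 13 windows and in 0.0149% of all windows. Its half-site AGAACA was also in 0 of the 13, against 20.7% of all windows. The core ACANNNTGT, which lies within the palindrome, matched Map3k6 from base -179 to -171 and Tsc22d3 (start site 1) from base -183 to -175, and 6.86% of all windows hold it. In Nfkbia, GGACTTTCC lay from -180 to -172 and GGAAATTCC from -31 to -23, sequences found in 0.305% and 0.332% of all windows. The E-box CACGTG, read by clock factors, was in 0 of the 13 windows, including that of Per1, against 6.42% of all windows. TATAAA was in 14.2% of all windows and matched the Nfkbia window, 2 of the 3 Sgk1 windows and the Tsc22d3 window of start site 2. A match says only that these letters are there, and known glucocorticoid response elements of several of these genes, Fkbp5 among them, lie outside such windows.

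The arrays held 45018 spots each, of which 65.1% to 73.7% of those that were not controls were well above background, and all 13 probes were well above background on all 12 arrays. Levels below are log2 of a probe's signal over the 75th percentile of its array, and a gene counted as changed where limma gave a Benjamini-Hochberg adjusted p under 0.05 over all 28515 probes fitted. A gene with several probes was counted by its brightest, which left 9278 named genes for the counts. Each group lay on 1 slide of its own, so slide and group cannot be told apart in any comparison, and nothing in the labels says whether pups shared a litter. The cell markers changed with injury. Neuronal markers fell in saline pups for 8 of 11 measured genes, and their summed signal was 152 to 184 in saline controls and 55.7 to 93.9 in injured saline pups, in units of the 75th percentile. Microglial and macrophage markers rose for 11 of 12 genes, from sums of 30.2 to 38.3 to sums of 218 to 309. In the MCI-186 arm the neuronal sum was 165 to 171 in controls and 59.8 to 110 in injured pups, and the microglial sum 35.0 to 38.2 and 172 to 320. Of the other lists, 7 of 8 mural cell and fibroblast genes rose in each arm and 1 fell. Of 8 astrocyte genes, 5 rose in saline and 6 in MCI-186 pups, and 2 fell in each arm. Of 9 endothelial genes, 3 rose and 3 fell in each arm. Of 6 choroid plexus and ependymal genes listed, 3 were measured, and all 3 rose. Their summed signals were 0.599 to 0.918 in saline controls and 6.0 to 13.7 in injured saline pups. Among them, Folr1 was not well above background on the saline control arrays. The others, Ttr, Kl and Clic6, had probes but were too dim to be kept, as no group had them clear of background in every pup. The rise thus covers only part of this list. Of 10 oligodendrocyte genes, 2 rose and 1 fell in saline pups, and 1 rose and 7 fell in MCI-186 pups. Red blood cell genes passed for 0 of 4 in each arm. In bulk tissue of this kind, fewer cells of a type and less RNA per cell cannot be told apart. The part of these shifts in the changes of the 8 genes was not tested.

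Injury in saline pups raised Nfkbia and Sgk1 and lowered Per1, and the other 5 genes did not pass the test on their brightest probes. These 3 of 8 compare with 55.4% of all genes called in the same comparison, where 24.9% rose and 30.5% fell. The median change of the 8 genes was -0.09, the same to 2 decimals as the -0.09 of all genes. Injury in MCI-186 pups raised Nfkbia, Sgk1 and Map3k6 and lowered Per1. These 4 of 8 compare with 57.0% of all genes called there, 25.6% higher and 31.5% lower, and the median was 0.08 against -0.08 for all genes. The share of the set that changed was thus no larger than the share of all genes in either arm. Injured and control pups overlapped for 4 of the 8 genes in saline and 3 in MCI-186 pups, by the brightest probe. For injury, the share of all genes without overlap was not counted, so the separations given below have no such share beside them. The counts of marker genes above and of the lists below stand against these same shares.

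**Figure D1:**
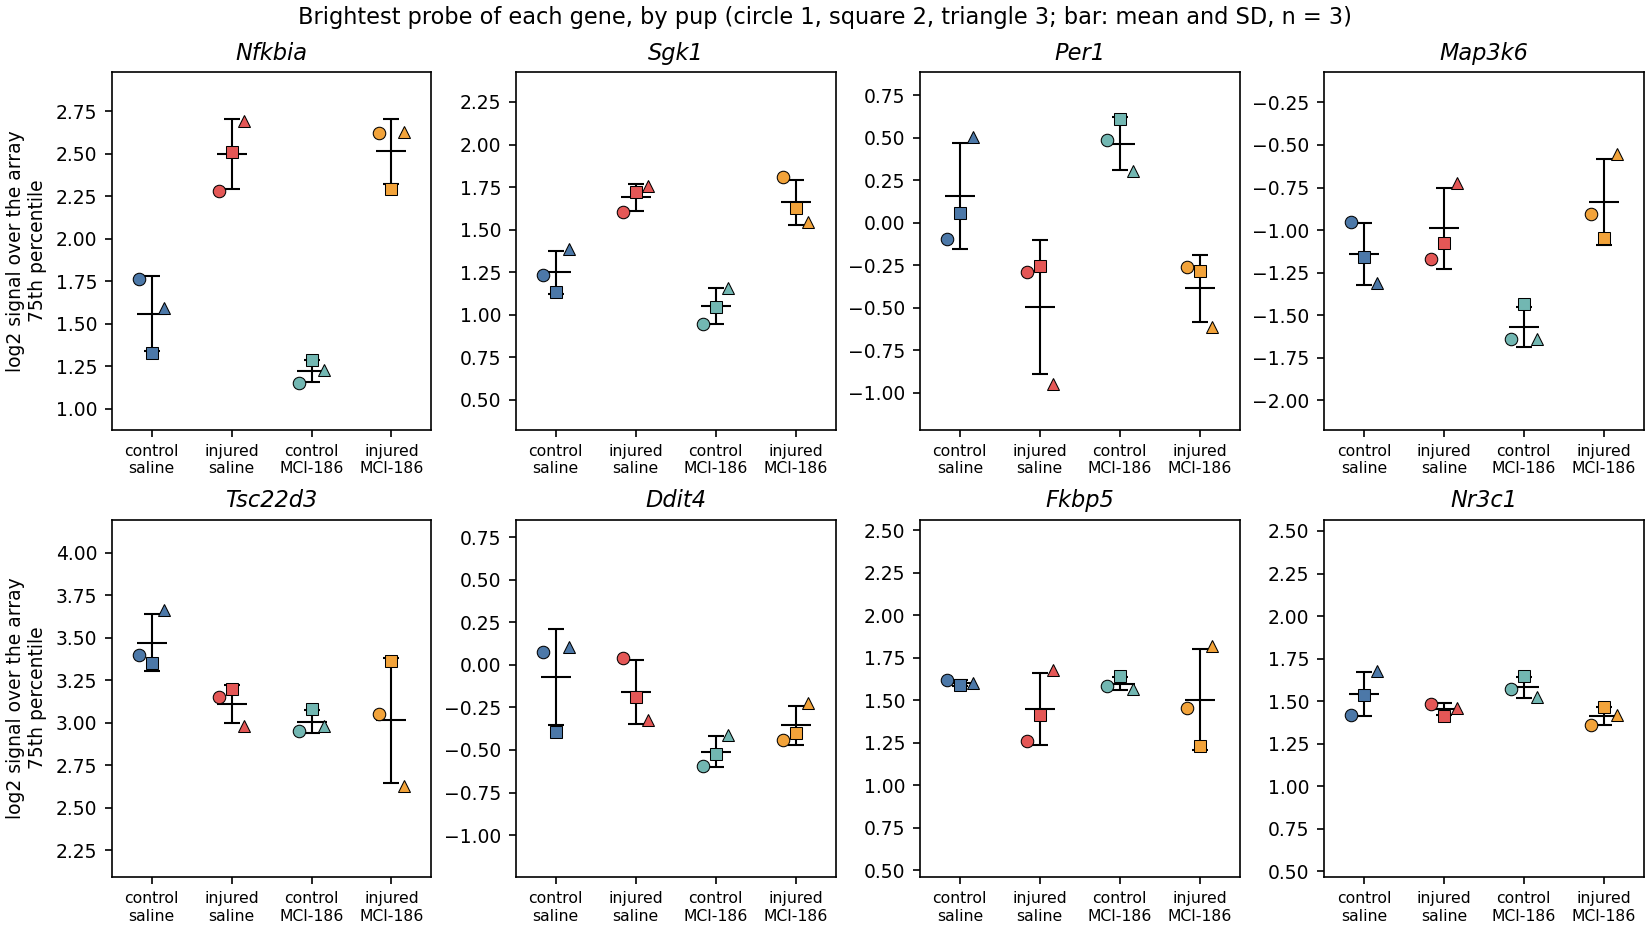
Level of the brightest probe of each gene in each pup, as log2 signal over the array 75th percentile, with equal spans on all vertical axes. Symbols give the replicate number, and bars the mean and SD of 3 pups. Nfkbia and Sgk1 are above, and Per1 below, the controls in every injured pup of both arms. The share of all genes that lay apart in this way was not counted.

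Nfkbia changed most among the 8 genes in both arms. In saline controls its level was 1.76, 1.33 and 1.59 in pups 1 to 3, and in injured saline pups it was 2.28, 2.51 and 2.69. All injured pups were higher than all controls, and the rise of 0.94 ± 0.15 (SE, n = 3 per group) is 1.91-fold, with an adjusted p of 0.000698 in limma. In MCI-186 controls the level was 1.15, 1.28 and 1.23, and in injured MCI-186 pups 2.62, 2.29 and 2.63. Again the groups did not overlap, and the rise was 1.29 ± 0.15, or 2.45-fold, with a limma adjusted p of 9.58e-05. Of all genes, 20.4% changed by more than this in saline pups, in either direction, and 12.8% in MCI-186 pups.

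In the pathway in which Nfkbia acts, genes rose or did not pass. Of 10 measured NF-κB genes, 6 rose and 0 fell in each arm, with a median of 0.54 in saline and 0.65 in MCI-186 pups. Over all genes, 24.9% rose and 30.5% fell in saline pups, and 25.6% rose and 31.5% fell in MCI-186 pups. Bcl3, an atypical IκB protein that acts in the nucleus, rose by 3.09 ± 0.21 and 3.31 ± 0.21 on the log2 scale. Nfkb2, the precursor of the p52 subunit, rose by 1.50 ± 0.13 and 1.65 ± 0.13, and Rela, the p65 subunit, by 0.75 ± 0.10 and 0.64 ± 0.10. A second Rela probe rose by 0.51 ± 0.16 in saline pups and did not pass in MCI-186 pups, where it was 0.34 ± 0.16 (adjusted p = 0.0972). Nfkbie, which encodes the inhibitor IκBε, rose by 0.67 ± 0.11 and 0.65 ± 0.11.

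Sgk1 rose less, and with little spread between pups. Saline controls stood at 1.23, 1.13 and 1.38, and injured saline pups at 1.60, 1.72 and 1.75. No control reached the lowest injured pup, and the rise was 0.44 ± 0.11 (SE), 1.36-fold, with an adjusted p of 0.00618 in limma. MCI-186 controls stood at 0.95, 1.04 and 1.16, and injured MCI-186 pups at 1.81, 1.63 and 1.54. The rise in this arm was 0.61 ± 0.11, 1.53-fold, with a limma adjusted p of 0.00105. Among 10 measured genes around the SGK and ASK kinases, 1 rose and 4 fell in saline pups (median -0.20), and 1 rose and 3 fell in MCI-186 pups (median -0.16). Shares over all genes were 24.9% higher and 30.5% lower in saline pups, and 25.6% and 31.5% in MCI-186 pups. Of the 10 listed here, the one that rose was Ndrg1, an SGK substrate that also responds to hypoxia, by 0.89 ± 0.17 and 0.81 ± 0.17. Pdpk1, the kinase that activates SGK1, fell by 0.53 ± 0.13 and 0.59 ± 0.13. Map2k6, a kinase downstream of the ASK family, fell by 0.37 ± 0.12 and 0.43 ± 0.12, though its call in saline pups is lost without control pup 3 (-0.30) or injured pup 3 (-0.24). Map2k4, of the same tier, fell by 0.55 ± 0.13 in saline pups and was -0.34 ± 0.13 in MCI-186 pups (adjusted p = 0.0517), where it passed under 7 of the 21 alternatives, among them normexp background correction (-0.36), quantile normalization (-0.35) and the fit without injured MCI-186 pup 2 (-0.46), and a second Map2k4 probe passed in neither arm, at -0.33 ± 0.24 and -0.04 ± 0.24.

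Per1 fell in both arms, and it was the gene called lower by its brightest probe. Its level was -0.09, 0.06 and 0.51 in saline controls and -0.29, -0.25 and -0.95 in injured saline pups. The groups did not overlap, but control pup 3 and injured pup 3 stood farthest apart. The fall was -0.65 ± 0.21 (SE), 0.636-fold, with an adjusted p of 0.0255 in limma. Without control pup 3 it was -0.48 (adjusted p = 0.0886) and without injured pup 3 it was -0.43 (adjusted p = 0.0936), so the call in this arm needs both pups. MCI-186 controls were at 0.48, 0.61 and 0.30, and injured MCI-186 pups at -0.26, -0.29 and -0.61. Here the fall was -0.85 ± 0.21, 0.554-fold, with a limma adjusted p of 0.00692.

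Other clock genes moved both ways, as genes did over the whole array. Of 14 measured, 2 rose and 6 fell in saline pups (median -0.31), and 2 rose and 5 fell in MCI-186 pups (median -0.27). The shares of all genes were 24.9% higher and 30.5% lower in saline pups, and 25.6% and 31.5% in MCI-186 pups. Per2, a repressor that is also a glucocorticoid target, fell by 0.61 ± 0.12 and 0.60 ± 0.12. Cry2, its partner, fell by 0.75 ± 0.16 and 0.67 ± 0.16, and Nr1d2, the nuclear receptor REV-ERBβ, by 0.51 ± 0.11 and 0.35 ± 0.11, the latter a call lost without MCI-186 control 2 (-0.30). Bhlhe41, a repressor also known as DEC2, rose by 1.03 ± 0.14 and 1.13 ± 0.14.

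Map3k6 passed the test in the MCI-186 arm and not in the saline arm. Its level was -0.95, -1.16 and -1.31 in saline controls and -1.17, -1.08 and -0.72 in injured saline pups, and these overlapped. The change was 0.15 ± 0.16 (SE), with a 95% interval of -0.20 to 0.51 and an adjusted p of 0.455 in limma. MCI-186 controls were at -1.64, -1.44 and -1.64 and injured MCI-186 pups at -0.90, -1.05 and -0.56. These did not overlap, and the rise was 0.74 ± 0.16, 1.67-fold, with a limma adjusted p of 0.00355. The difference between the injury effects was 0.59 ± 0.23, at an unadjusted p under 0.05, and with adjustment over all probes it did not pass in limma (adjusted p = 1.00).

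Tsc22d3 differed between its probes. The brighter read 3.40, 3.35 and 3.66 in saline controls and 3.15, 3.20 and 2.98 in injured saline pups. All injured pups were lower, but the change of -0.36 ± 0.17 (SE) had a limma adjusted p of 0.0947, which passed without injured MCI-186 pup 2 (adjusted p = 0.0429) or 3 (adjusted p = 0.0305) in the shared estimate of spread. The dimmer read -0.81, -0.80 and -0.57 in saline controls and -1.36, -1.40 and -1.74 in injured saline pups, and it fell by 0.78 ± 0.15, 0.584-fold, with a limma adjusted p of 0.00187. In MCI-186 pups the brighter probe was 2.95, 3.08 and 2.98 in controls and 3.05, 3.36 and 2.63 in injured pups, a change of 0.01 ± 0.17 (adjusted p = 0.973). The dimmer was -1.04, -0.93 and -0.87 in controls and -1.33, -1.13 and -1.63 in injured pups, a fall of 0.42 ± 0.15 (adjusted p = 0.0347) that does not pass when any 1 of 5 of the 6 pups of this arm is left out. Tsc22d3 is transcribed from several start sites, as the windows above show, and which transcripts each probe reads was not tested.

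Ddit4 did not pass in either arm. Its level was 0.08, -0.40 and 0.11 in saline controls and 0.04, -0.19 and -0.33 in injured saline pups, a change of -0.09 ± 0.15 (SE) with a 95% interval of -0.41 to 0.24. In MCI-186 controls it was -0.59, -0.53 and -0.41 and in injured MCI-186 pups -0.44, -0.40 and -0.22, a change of 0.16 ± 0.15 with an interval of -0.17 to 0.48. Groups overlapped in both arms. Of 10 measured genes in a list drawn around the mTOR pathway, on which REDD1 acts, 2 rose and 4 fell in each arm, with medians of -0.23 and -0.27. Over all genes, 24.9% rose and 30.5% fell in saline pups, and 25.6% rose and 31.5% fell in MCI-186 pups. Txnip, which is on this list but encodes an inhibitor of thioredoxin, rose by 1.86 ± 0.28 and 2.25 ± 0.28. Eif4ebp1, the translation repressor that mTOR phosphorylates, rose by 1.34 ± 0.22 and 1.21 ± 0.22. Tsc2 and Rheb, the brake on mTOR and the GTPase it controls, fell by 0.54 ± 0.11 and 0.39 ± 0.08 in saline pups and by 0.50 ± 0.11 and 0.45 ± 0.08 in MCI-186 pups.

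Fkbp5 did not pass on any of its 3 probes. The brightest read 1.62, 1.59 and 1.60 in saline controls and 1.26, 1.41 and 1.68 in injured saline pups. In MCI-186 pups it read 1.58, 1.64 and 1.57 in controls and 1.45, 1.23 and 1.82 in injured pups. Controls lay close together in both arms, with SDs of 0.02 and 0.04, whereas injured pups lay on both sides of them, with SDs of 0.21 and 0.30. The changes were -0.15 ± 0.15 (95% interval -0.48 to 0.17) and -0.10 ± 0.15 (interval -0.42 to 0.23). The second probe changed by -0.19 ± 0.12 and -0.10 ± 0.12, and the third by 0.06 ± 0.13 and 0.16 ± 0.13. Of 10 measured relatives of GILZ and FKBP5, 5 rose and 4 fell in saline pups (median 0.22), and 4 rose and 3 fell in MCI-186 pups (median 0.08). Shares over all genes were 24.9% higher and 30.5% lower in saline pups, and 25.6% and 31.5% in MCI-186 pups. Fkbp9 and Fkbp10, prolyl isomerases of the endoplasmic reticulum, rose by 1.99 ± 0.24 and 1.19 ± 0.18 in saline pups and by 1.99 ± 0.24 and 1.26 ± 0.18 in MCI-186 pups. A second Fkbp10 probe did not pass in saline pups, at 0.57 ± 0.31 (adjusted p = 0.143). Fkbp3, a nuclear member, fell by 0.84 ± 0.12 and 0.89 ± 0.12, and Tsc22d1, of the GILZ family, by 0.49 ± 0.07 and 0.38 ± 0.07. With quantile normalization Tsc22d1 was -0.14 in MCI-186 pups and did not pass (limma adjusted p = 0.118).

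Nr3c1, the receptor itself, did not pass on its brightest probe in either arm. The brightest of 3 probes read 1.42, 1.53 and 1.68 in saline controls and 1.48, 1.41 and 1.46 in injured saline pups, a change of -0.09 ± 0.09 (SE) with a 95% interval of -0.28 to 0.10. In MCI-186 controls it read 1.57, 1.65 and 1.52 and in injured MCI-186 pups 1.36, 1.46 and 1.42, a change of -0.17 ± 0.09 with an interval of -0.36 to 0.03. The second probe, spotted 10 times on each array, changed by -0.12 ± 0.09 in saline pups and fell by 0.27 ± 0.09 in MCI-186 pups, 0.829-fold, with a limma adjusted p of 0.0238. Without any 1 of the MCI-186 controls, or without injured MCI-186 pup 1, that call is lost. The third probe changed by -0.20 ± 0.10 and 0.16 ± 0.10 and did not pass. Intervals of the brightest probe thus reach down to -0.36, in MCI-186 pups, where all injured pups were lower than all controls on it. Those of the other probes reach further, to -0.46 for the second in MCI-186 pups and -0.43 for the third in saline pups.

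**Figure D2:**
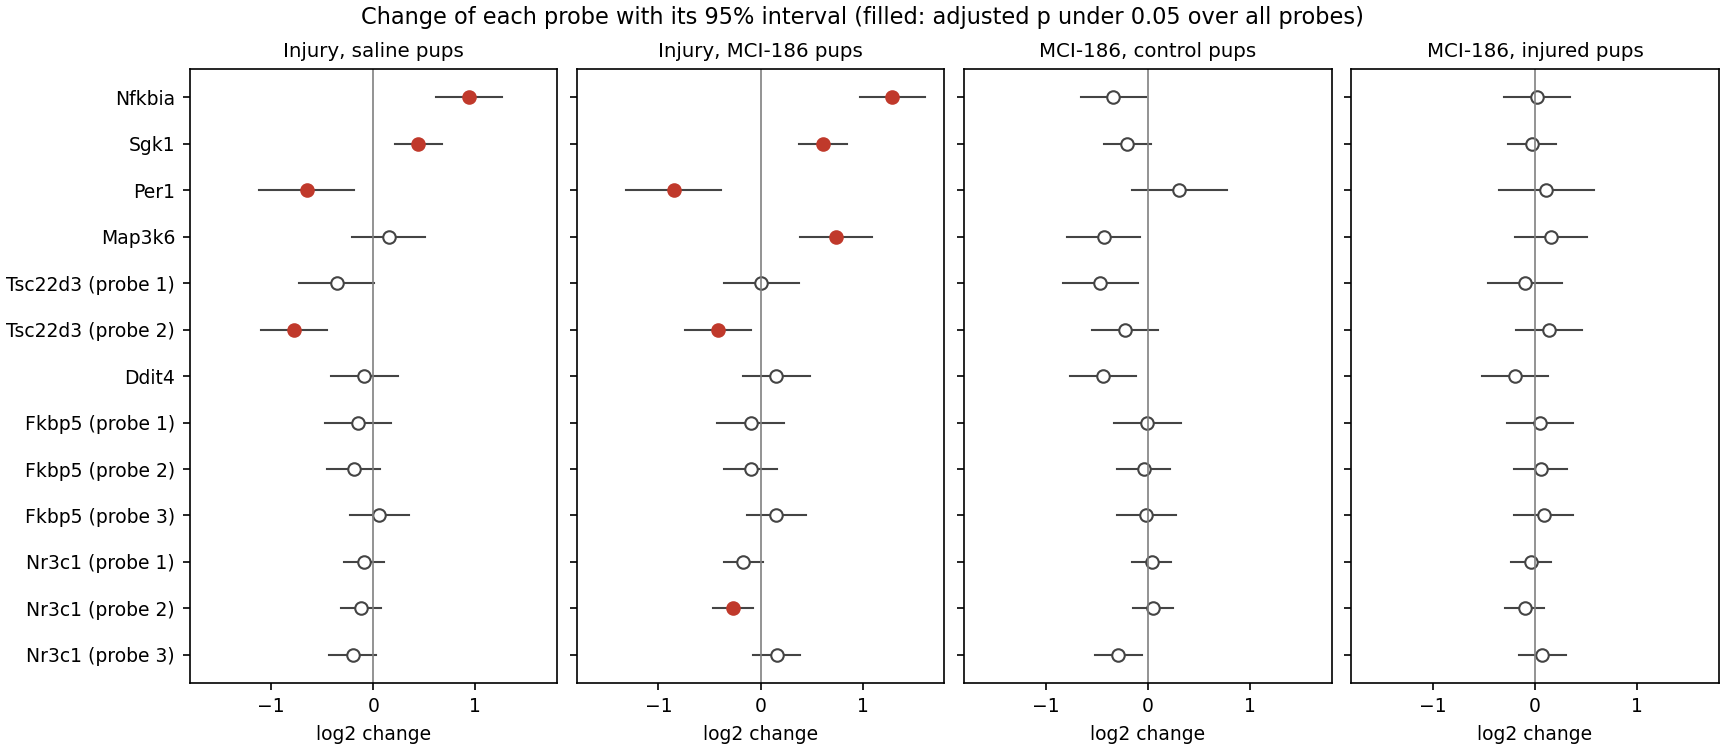
Log2 change of all 13 probes with 95% intervals from limma, for injury in each arm and for MCI-186 in control and injured pups. Probes of a gene are numbered from the brightest, and filled points passed the adjusted threshold of 0.05. Filled points occur in the 2 injury panels and in neither MCI-186 panel.

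Genes that act on the receptor or on its hormone changed in both directions, as genes did over the whole array. Of 13 measured partners of the receptor, 3 rose and 4 fell in saline pups (median -0.28), and 2 rose and 4 fell in MCI-186 pups (median -0.16). The shares of all genes were 24.9% higher and 30.5% lower in saline pups, and 25.6% and 31.5% in MCI-186 pups. Hsp90aa1, which encodes the chaperone Hsp90, fell by 0.67 ± 0.14 and 0.72 ± 0.14, and St13, a co-chaperone in receptor assembly, rose by 0.40 ± 0.10 and 0.36 ± 0.10. Hspa8, the constitutive chaperone Hsc70, fell by 0.40 ± 0.10 in saline pups and was -0.07 ± 0.10 in MCI-186 pups (adjusted p = 0.567), although 2 of its other 3 probes fell there. Crebbp, a coactivator, rose by 0.25 ± 0.07 in saline pups on its brightest probe, a call lost without saline control 2 (0.24), while its other probes stood at -0.08 ± 0.12 and 0.03 ± 0.25.

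Of 13 genes of steroid metabolism and the stress hormones, 2 rose and 6 fell in saline pups (median -0.35), and 4 rose and 6 fell in MCI-186 pups (median -0.42). Over all genes, 24.9% rose and 30.5% fell in saline pups, and 25.6% rose and 31.5% fell in MCI-186 pups. Hsd11b1, the enzyme that regenerates active corticosterone inside cells, fell by 1.74 ± 0.14 and 1.30 ± 0.14. Hsd11b2, the enzyme that inactivates it, rose by 1.07 ± 0.24 and 1.19 ± 0.24. Crhr1, the main receptor of corticotropin-releasing hormone, fell by 1.26 ± 0.26 and 1.20 ± 0.26. Crhr2, its second receptor, fell by 0.78 ± 0.17 in saline pups and was -0.35 ± 0.17 in MCI-186 pups (adjusted p = 0.114), where it passed with normexp background correction (-0.29), with the deposited value table (-0.45) and without injured pup 2 (-0.48). It is dim, and with the higher floor all its values lay at the floor.

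Among 22 measured glucocorticoid targets outside the set, 8 rose and 6 fell in saline pups (median 0.16), and 9 rose and 6 fell in MCI-186 pups (median 0.29). Shares over all genes were 24.9% higher and 30.5% lower in saline pups, and 25.6% and 31.5% in MCI-186 pups. Lcn2, the acute-phase protein lipocalin 2, rose by 5.31 ± 0.46 and 5.08 ± 0.46, and Cebpd, an inflammatory transcription factor, by 2.57 ± 0.21 and 2.88 ± 0.21. Mt1, a metallothionein, rose by 2.13 ± 0.26 and 1.96 ± 0.26, and Cdkn1a, the p21 cell cycle inhibitor, by 1.38 ± 0.14 and 0.80 ± 0.14. These 4 are induced by inflammation or cell stress as well as by glucocorticoids. Klf9 and Zbtb16, transcription factors induced by glucocorticoids and chosen here after their values were seen, fell by 0.89 ± 0.18 and 0.65 ± 0.15 in saline pups and by 0.86 ± 0.18 and 0.52 ± 0.15 in MCI-186 pups. Without MCI-186 control 3, Zbtb16 was -0.48 in MCI-186 pups and did not pass. A second Zbtb16 probe fell by 0.77 ± 0.22 in saline pups. In MCI-186 pups it was -0.27 ± 0.22 and did not pass (limma adjusted p = 0.323). Klf9 and Zbtb16 were among the 6 that fell, fewer than the 8 and 9 that rose, and do not stand for the list. The largest change downward in saline pups was -1.21, in another gene. Angptl4 and Mertk, given in the last section, were among those that rose. So were Plekhf1, by 0.90 ± 0.16 in saline and 1.41 ± 0.16 in MCI-186 pups, and Sult1a1, by 1.30 ± 0.30 and 1.81 ± 0.30. These last genes were also named after their values were seen, and were not run under the alternatives.

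**Figure D3:**
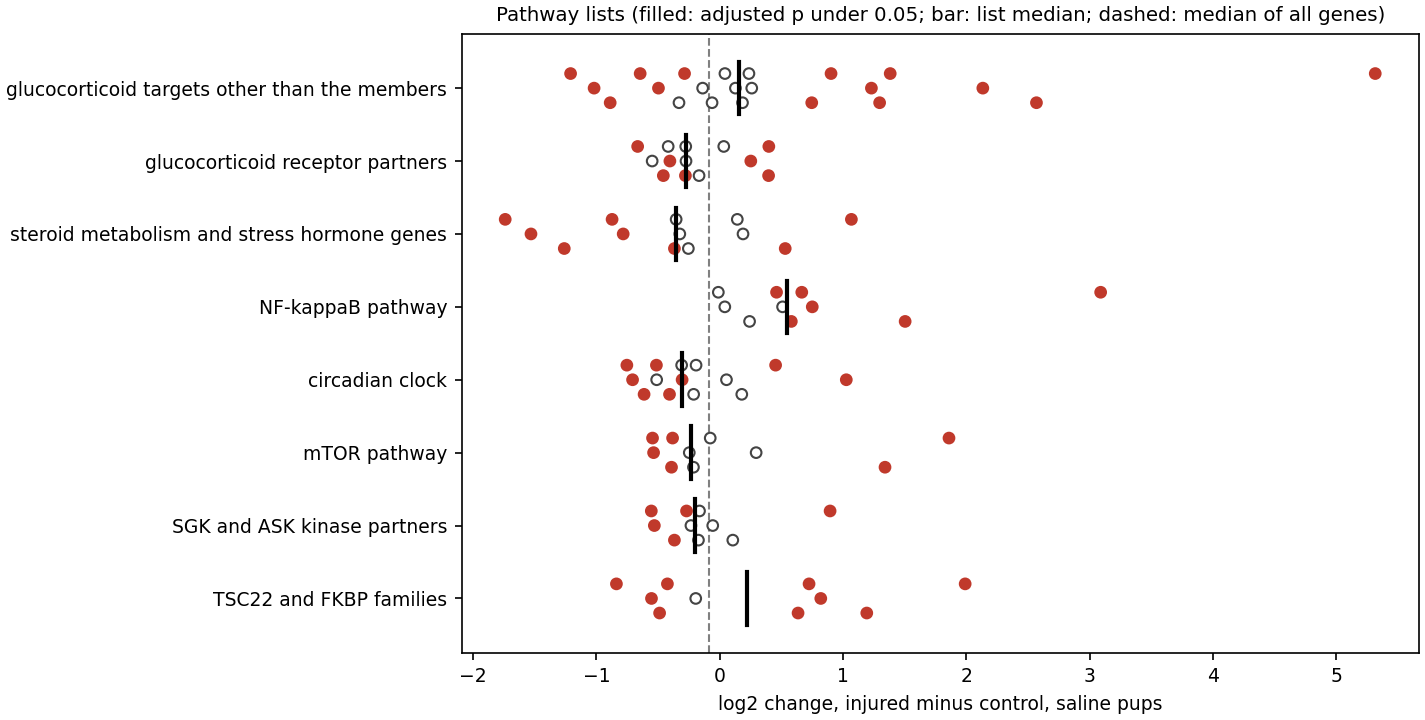
Log2 change by injury in saline pups for each measured gene of the 8 pathway lists, with the list median as a bar and the median of all genes, -0.09, as a dashed line. Filled points passed the adjusted threshold of 0.05. All 10 measured NF-κB genes lie to the right of the dashed line, from -0.01 to 3.09, and the glucocorticoid target list spreads from -1.21 to 5.31.

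Between injured pups given MCI-186 and saline, none of the 8 genes passed the test. No gene of the 9278 passed in limma (0.0%), 188 had an unadjusted p under 0.05, and 0 of the 8 were among these. All 8 genes overlapped between the injured groups. Of all genes, 1.68% had injured MCI-186 pups all lower, and the share with them all higher was not counted. Changes of the brightest probes ran from -0.20 ± 0.15 (SE) for Ddit4, with a 95% interval of -0.52 to 0.13, to 0.15 ± 0.16 for Map3k6, with an interval of -0.20 to 0.51. For Nfkbia the interval was -0.30 to 0.34, and for Sgk1 -0.26 to 0.20.

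In uninjured pups, 4 of the 8 genes lay lower in every MCI-186 control than in every saline control, but none passed the adjusted threshold. They were Tsc22d3, Ddit4, Map3k6 and Nfkbia, each at an unadjusted limma p under 0.05, and such a separation was seen for 11.3% of all genes. Of all genes 0.14% passed, 13 in number, with 750 at an unadjusted p under 0.05. Tsc22d3 was lower by -0.46 ± 0.17 (limma adjusted p = 0.423) on the brighter probe and by -0.22 ± 0.15 on the dimmer. For Ddit4 the difference was -0.44 ± 0.15 (limma adjusted p = 0.385), and its value in saline control pup 2, -0.40, lay just above the highest MCI-186 control, -0.41. Map3k6 differed by -0.43 ± 0.16 (limma adjusted p = 0.458) and Nfkbia by -0.34 ± 0.15 (limma adjusted p = 0.561).

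The other 4 genes overlapped between the control groups. Sgk1 differed by -0.20 ± 0.11 and Per1 by 0.31 ± 0.21, while Fkbp5 and Nr3c1 stood at 0.00 ± 0.15 and 0.04 ± 0.09. The median over the 8 genes was -0.27, against 0.01 over all genes. Red blood cell genes also stood lower in the MCI-186 controls: the summed signal of 4 genes, Hbb and Alas2 among them, was 69.5, 58.7 and 24.6 in saline controls and 15.3, 14.3 and 19.3 in MCI-186 controls, with 0 of the 4 passing. Other sums also lay apart, with 0 genes passing: oligodendrocyte sums were 151 to 179 in saline and 201 to 206 in MCI-186 controls, mural cell and fibroblast sums 52.6 to 56.1 and 42.5 to 51.7, and astrocyte sums, by a narrow margin, 160 to 171 and 156 to 159. Microglial sums overlapped, at 30.2 to 38.3 and 35.0 to 38.2, and so did those of neurons, endothelium and choroid plexus. The part of these shifts in the lower values was not tested.

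The injury effect in MCI-186 pups and the MCI-186 difference in controls share the 3 MCI-186 control arrays, so their values are set side by side only. For Map3k6 they were 0.74 and -0.43, for Nfkbia 1.29 and -0.34, for Sgk1 0.61 and -0.20, and for Per1 -0.85 and 0.31. The difference between the injury effects passed for 0 of the 8 genes and for 1 of 9278 genes (0.0108%), with 355 genes at an unadjusted p under 0.05. Map3k6 was the only member among these 355 by its brightest probe. The interval for Nfkbia was -0.10 to 0.81, and for Tsc22d3 -0.15 to 0.89.

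Within groups, the genes were compared by the deviation of each pup from its group mean, over all 12 pups and 28 pairs of genes, with a two-sided permutation test over all orders within groups. No pair passed adjustment over the 28. The closest pair was Map3k6 and Fkbp5, with a Pearson r of 0.87 (permutation p = 0.00231, adjusted p = 0.0648) and a Spearman rho of 0.87 (permutation p = 0.00463, adjusted p = 0.130). Both genes were highest in pup 3 of each injured group, where Map3k6 lay 0.27 and 0.28 and Fkbp5 0.23 and 0.32 above the group mean. Without these pups, the farthest from the median for Map3k6, r was 0.71. Tsc22d3 and Per1 were both lowest in the same pups, by -0.13 and -0.39 for Tsc22d3 and by -0.45 and -0.23 for Per1, and their r was 0.68 (permutation p = 0.0147, adjusted p = 0.205), with a rho of 0.83 (permutation p = 0.0123, adjusted p = 0.167). Without the 2 pups farthest for Tsc22d3 the r was 0.89. The neuronal sum was 55.7 in injured saline pup 3, the lowest of its group, and 59.9 in injured MCI-186 pup 3, next to 59.8 in pup 1. Injured MCI-186 pup 2 stood on the other side, with a neuronal sum of 110, a microglial sum of 172 against 317 and 320, and a red blood cell sum of 55.3 against 10.8 and 11.3. In that pup Fkbp5, Nfkbia and Map3k6 lay at -0.27, -0.22 and -0.21 from the group mean, and Tsc22d3 at 0.35. The part of these sums in the deviations was not tested.

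**Figure D4:**
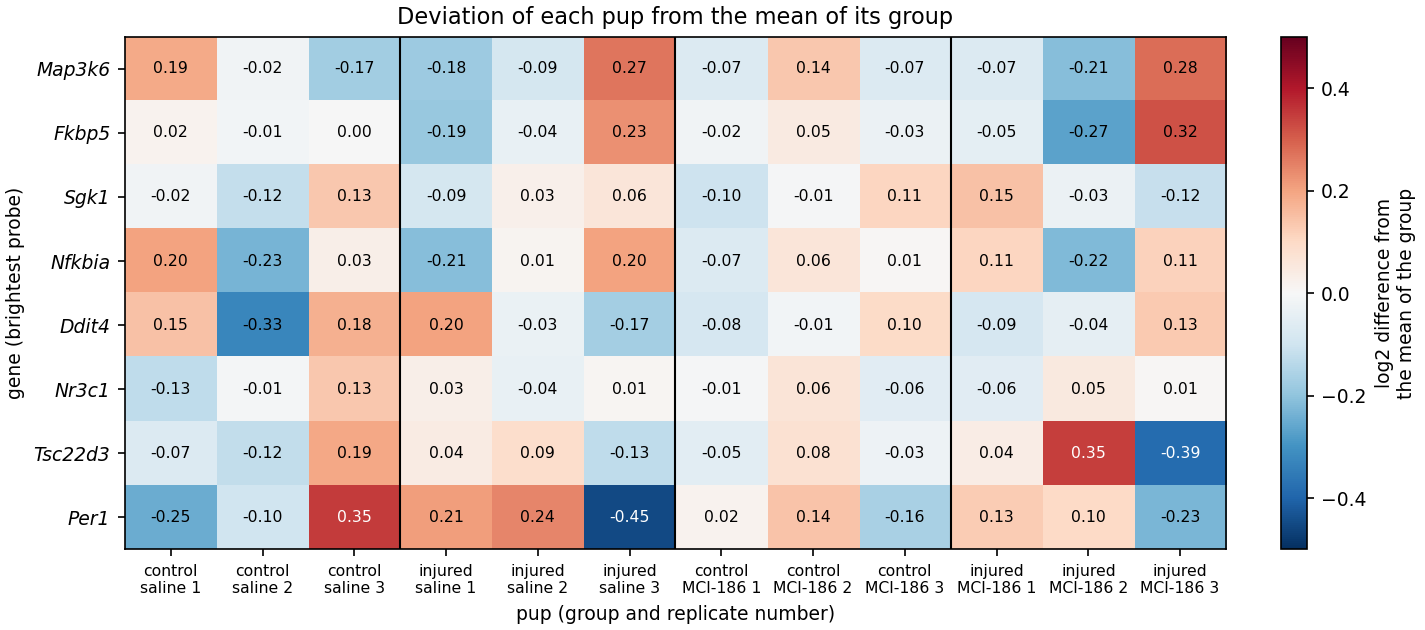
Deviation of each pup from the mean of its group, in log2 units, for the brightest probe of each gene. Red is above and blue below the group mean. In pup 3 of both injured groups Map3k6 and Fkbp5 are above the mean, and Tsc22d3 and Per1 below it.

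Each gene was also matched with the named genes whose levels lay closest to it over the 12 pups, after each gene was set to its own mean in saline controls. The measure was the root mean square difference in log2 units, over 9229 genes. The closest to Nfkbia were Slco1a4, a transporter of brain endothelium, at 0.109, and Serpinh1, a collagen chaperone, at 0.114. For Sgk1 they were Enkur at 0.076 and the clock gene Per3 at 0.084, and for Per1 Gpr173, an orphan receptor, at 0.148 and Atp6v1a, a proton pump subunit, at 0.166. Upp1, uridine phosphorylase, at 0.123 and the kinesin Kif1c at 0.147 lay closest to Map3k6. Tsc22d3 was closest to the autophagy kinase Ulk1 at 0.090 and to Sun1, of the nuclear envelope, at 0.111. Ddit4 lay nearest to Ppfia1 at 0.124 and to the kinase Prkd2 at 0.146, Fkbp5 to the chromatin protein Cbx5 at 0.070 and to ferredoxin Fdx1 at 0.080, and Nr3c1 to Grina at 0.044 and the ceramide transporter Cert1 at 0.046. Of these 16 matches, 7 were found again with normexp background correction and 7 with quantile normalization, so most of the names changed under each of these settings. The higher floor and the deposited value table were also run for the matches, and their counts are not given here.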

How the data were processed

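One array was hybridised for each of 12 pups, and the labels' titles gave the groups. Agilent Feature Extraction 9.5.3.1 made the scanner files, per the file headers, and the spot intensity used from them was its background-subtracted processed signal. A deposited table of log2 values covers these arrays too. It was compared with the levels recomputed here for the probes used, after each probe's median over the arrays was subtracted from those levels. The correlation was 0.998 or above in every column. The column medians of the deposited table ran from -0.12 to 0.12, and its probes were centred over the arrays. How the authors made this table is not stated in the labels or headers.

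Each level is the processed signal over the 75th percentile of the spots on its array that are no controls, with a floor of 0.005 of that percentile, on a log2 scale. Outlier spots and controls did not enter, and replicate spots were averaged. A probe was used if 1 group or more had it well above background on all arrays, as held for 28521 of 41012. A value in every group was present for 28515, and these were fitted with limma 3.58.1 (R 4.3.3) as 4 group means, with 8 residual and 2.53 prior degrees of freedom and Benjamini-Hochberg adjustment over all of them. The fit was tested on simulated data. RefSeq accessions named the probes and left 25828 unnamed. Files were read in Python 3.11.15.

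The members and lists were chosen with earlier results of these data known. Named genes were all members, up to 4 called genes per list with the lowest p for injury in saline pups, up to 2 called in the contrasts other than injury (there were none), and 2 like genes per member. Exceptions are marked in the text. The alternatives were 21 other settings. For normexp, median spot signals replaced the planned mean signals. The number of arrays limits the precision. The limma p-values set each difference against the spread between pups within groups, estimated over all 4 groups. They take no account of differences between slides, and shared litters are not known.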

Additional observations from a re-analysis of the deposited data

How the results depend on the processing

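All 21 alternatives kept the injury calls of Nfkbia and Sgk1 in both arms and of Map3k6 in MCI-186 pups. Of 1100 member values recomputed, 25 changed sign, 14 lost a call and 2 gained one. The number of members called stayed within 1.5 times the reported count in every comparison. Per1 in saline pups ranged from -0.78 to -0.43 with 1 pup left out and lost its call without saline control 3 or injured saline pup 3. Tsc22d3's brighter probe passed in saline pups, at -0.36, without injured MCI-186 pup 2 (adjusted p = 0.0429) or 3 (adjusted p = 0.0305). Its dimmer probe in MCI-186 pups, at -0.42, did not pass with no filter (limma adjusted p = 0.0502) or with the replicate number as a block (limma adjusted p = 0.0518). Nr3c1's second probe lost its call in MCI-186 pups with quantile normalization, at -0.21 (limma adjusted p = 0.0542).

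Signs turned only for changes that were not called. The third Fkbp5 probe in saline pups was -0.0078 with normexp, -0.0085 with quantile normalization and -0.061 to 0.13 with 1 pup left out. Nr3c1 for MCI-186 in controls was -0.0089 with quantile normalization and -0.025 to 0.10 with 1 left out. Other leave-one-out ranges that cross 0 were, for injury in saline pups, Ddit4 -0.25 to 0.0025, and for injury in MCI-186 pups, Fkbp5 -0.26 to 0.038, its second probe -0.21 to 0.00076 and Tsc22d3 -0.17 to 0.20. For MCI-186 in injured pups they were Fkbp5 -0.11 to 0.19, Nfkbia -0.088 to 0.13, Per1 -0.12 to 0.23, Sgk1 -0.11 to 0.027 and Tsc22d3 -0.27 to 0.095. Fkbp5 ranged from -0.027 to 0.011 for MCI-186 in controls and from -0.10 to 0.19 for the difference. Hspa8 in MCI-186 pups was 0.10 with quantile normalization.

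Counts over all genes near 0 moved. For MCI-186 in controls 6 genes passed with normexp, 8 with the stricter filter, 24 with the higher floor, 7 with the replicate block and 7 to 21 with 1 pup left out. In injured pups 2 passed with the higher floor and 0 to 1 with 1 pup left out. For the difference 3 passed with quantile normalization, 5 with the higher floor, 2 with 1 probe per gene and 1 to 7 with 1 pup left out. Of the 28 pairs, 1 passed with normexp and 1 with the deposited table. The causes were not tested. Deviations of same-numbered pups correlated at -0.28 to 0.54, over 0.1 in 2 of 18 pairs, and highest for pup 3 of the injured groups. Pups of unlike number were not compared, so these values cannot decide whether the numbers pair the pups. Slide as a block was not run, since each group lies on 1 slide. The likeness settings and those of the other named genes were added after seeing the data, and of the latter's 1720 values 1 changed sign, 8 lost and 11 gained a call.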

Other observations

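Among the 22 glucocorticoid targets outside the set, 3 genes chosen after their values were seen, lay apart between the uninjured groups without passing adjustment. Angptl4, an inhibitor of lipoprotein lipase, was -0.73 ± 0.16 (SE) in MCI-186 controls against saline controls (limma adjusted p = 0.166). Mertk, a phagocytic receptor, was -0.53 ± 0.11 (limma adjusted p = 0.144). Dusp1, a MAP kinase phosphatase that is also an immediate-early gene, lay on the other side at 1.33 ± 0.39 (limma adjusted p = 0.298). Each was apart in all 3 pups of both groups. Of all genes, 11.3% lay lower in every MCI-186 control than in every saline control, and the share lying higher was not counted. How many of the 22 targets lay apart is not given here. Of these 22, 6 had an unadjusted limma p under 0.05 and 0 passed, against 8.08% and 0.14% of all genes. After injury, Angptl4 rose by 1.23 ± 0.16 in saline and 2.20 ± 0.16 in MCI-186 pups, and Mertk by 0.75 ± 0.11 and 1.18 ± 0.11. Dusp1 was -0.33 ± 0.39 in saline pups (adjusted p = 0.50) and fell by 1.45 ± 0.39 in MCI-186 pups. The difference between the injury effects was not called for any of these genes, with adjusted p of 0.515 for Angptl4 and 1.00 for Mertk and Dusp1.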
